A study of Callithrix jacchus with 4 samples.

Results

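Cortical projection neurons are the excitatory cells that send axons between cortical areas or out of the cortex, and their identity is set by transcription factors that stay on after the cells leave the cycle. The 9 factors described here were chosen by symbol, and all 9 have a row among the 35205 gene rows and passed the filter on low counts that 16956 genes passed. NEUROD1, NEUROD2 and NEUROD6 are basic helix-loop-helix (bHLH) factors that drive differentiation of newborn excitatory neurons and persist in mature ones. TBR1, BCL11B and FEZF2 specify deep-layer neurons, and CUX1, CUX2 and RORB mark upper-layer neurons. Work in mice showed that deep-layer factors restrain one another, so that a neuron settles on a corticothalamic, subcerebral or callosal type, while CUX factors shape dendrites and spines of upper-layer cells.

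The libraries were 2 from FMR1 mutant marmosets (Callithrix jacchus) made with CRISPR/Cas9 and 2 from wild-type marmosets, each of poly(A) RNA from brain at postnatal day 5. FMR1 encodes FMRP, an RNA-binding protein of neurons whose loss causes fragile X syndrome. The study's design names cerebral cortex, striatum and hippocampus as the forebrain parts sampled, while the label of each library says only brain. The labels do not state the mutant allele, its zygosity or mosaicism, the sex of the animals, or whether each library is 1 animal, so the spread behind a p-value may be technical.

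Totals lay between 12331639 and 13455702 counts, and the factors had 344 to 3642 counts per library, so counting error was small for each. All 9 were counted in every library. Levels are given as CPM, counts scaled to a common library size after TMM. Wild-type replicate 1 stood apart in thalamic markers and in cerebellar and hindbrain markers. Its 15 thalamic markers summed to 680 CPM, against 451 and 420 CPM in the mutant libraries and 398 CPM in wild-type replicate 2, and TCF7L2, a thalamic transcription factor, had 1272 counts there, against 118 and 121 in the mutant libraries and 139 in wild-type replicate 2. Of the 13 thalamic markers tested, 12 had a negative and 1 a positive log2 fold change, and 0 passed by edgeR (1 higher and 3 lower at an unadjusted p under 0.05). The 1 that was higher was LHX2, which is also in the list of dorsal telencephalic factors below. CALB2 and LEF1 are also among the hippocampal and dentate markers, FOXP2 among the deep-layer factors and SLC17A6 among the excitatory neuron markers. SHOX2, another thalamic marker, had 3 and 0 counts in mutant replicates 1 and 2, against 90 and 1 in wild-type replicates 1 and 2. The log2 fold change of each factor is therefore also given without wild-type replicate 1, and the part of tissue from outside the forebrain regions named was not tested. In bulk tissue, fewer cells of a type and less RNA per cell cannot be told apart.

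Of the 9 factors, 1 rose in the mutant libraries, 0 fell and 8 did not pass (edgeR's quasi-likelihood test, Benjamini-Hochberg adjusted p under 0.05 over all genes tested). Among all genes tested, 2.23% changed, 0.661% upward and 1.57% downward. At an unadjusted p under 0.05, 3 of the 9 were higher, all of them NEUROD genes, and 0 were lower, against 5.64% higher and 7.75% lower among all genes. The mutant and wild-type libraries did not overlap for 5 factors, 4 of them higher and 1 lower in the mutant, where 43.1% of all genes separated, 21.4% of all genes with the mutant higher and 21.8% with it lower. The median log2 fold change (mutant over wild-type, as throughout) was 0.10, against -0.00396 over all genes tested.

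NEUROD6, a bHLH factor largely restricted to forebrain excitatory neurons, was the factor that rose. It stood at 272 and 270 CPM in mutant replicates 1 and 2, against 212 and 195 CPM in wild-type replicates 1 and 2. The mutant libraries were nearly equal and both lay above the higher wild-type library. Its fitted ratio was 1.33, or 0.41 on the log2 scale (SE 0.11, 95% interval 0.18 to 0.65; adjusted p = 0.0469). The libraries of a group differed by 0.0074 on the log2 scale in the mutant and by 0.11 in the wild type. This call lay close to the threshold. DESeq2 called NEUROD6 (adjusted p = 0.0204), and limma-voom did not (adjusted p = 0.0526). The call was also lost whichever library was left out, with the log2 fold change between 0.36 and 0.47, and 0.47 without wild-type replicate 1. Such a fit has 1 library in a group, so a lost call, here and below, cannot tell a weak change from a missing replicate.

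NEUROD2, which drives synaptic maturation and migration of cortical neurons in mice, was 233 and 220 CPM in mutant replicates 1 and 2, against 175 and 200 CPM in wild-type replicates 1 and 2. Both mutant libraries were above both wild-type libraries, and the wild-type libraries differed by 0.20 on the log2 scale. NEUROD2 did not pass, with a log2 fold change of 0.27 (SE 0.12, 95% interval 0.04 to 0.51; adjusted p = 0.281). Without wild-type replicate 1 it was 0.18 (adjusted p = 0.763).

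NEUROD1, which in mice is needed for granule neurons of the dentate gyrus and is also made in newborn cortical neurons, was 37.0 and 35.2 CPM in mutant replicates 1 and 2, against 25.9 and 30.5 CPM in wild-type replicates 1 and 2. Its groups did not overlap, and wild-type replicate 1 was again the lowest. NEUROD1 did not pass either, at a log2 fold change of 0.35 (SE 0.15, 95% interval 0.05 to 0.66; adjusted p = 0.280), and the value was 0.24 without wild-type replicate 1 (adjusted p = 0.718). Hippocampal and dentate markers summed to 646 and 634 CPM in the mutant libraries and 864 and 773 CPM in the wild-type libraries. Of the 13 tested by edgeR, 0 rose (0 higher at an unadjusted p under 0.05, and 3 lower) and 1 fell. Their log2 fold changes were positive for 4 and negative for 9. SPOCK1, the 1 that fell, made the largest part of the sums, at 311 and 335 CPM in the mutant libraries, against 492 and 423 CPM in the wild-type libraries. PROX1, also in the list, overlapped between groups, at 16.5 and 17.5 CPM in the mutant libraries, against 20.8 and 12.2 CPM in the wild-type libraries. The sums are therefore not a measure of dentate tissue. The part of these markers in the NEUROD1 values was not tested.

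**Figure D1:**
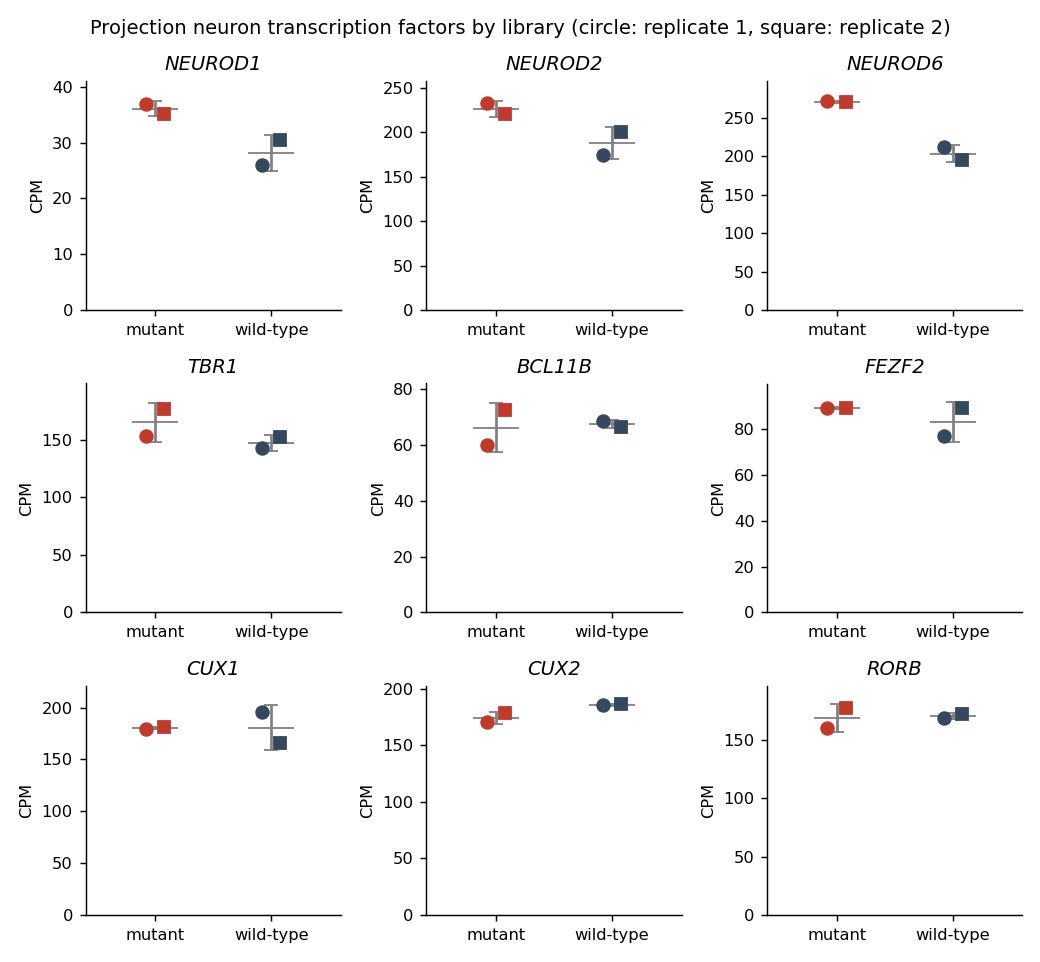
CPM of each factor in each library, with mutant on the left of each panel and wild-type on the right; circles are replicate 1, squares replicate 2, and the grey bar is the mean ± SD (n = 2). The libraries separate for NEUROD1, NEUROD2, NEUROD6 and TBR1, with the mutant higher, and for CUX2, with the mutant lower.

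Among the deep-layer factors, TBR1 was the one whose groups did not overlap. TBR1 directs corticothalamic identity and is itself a cause of autism when mutated in humans. It was 153 and 177 CPM in mutant replicates 1 and 2, against 143 and 152 CPM in wild-type replicates 1 and 2. The lower mutant library was barely above the higher wild-type one, and the mutant libraries differed by 0.21 on the log2 scale, more than the 0.16 by which the groups differed (SE 0.12, 95% interval -0.08 to 0.41; adjusted p = 0.610). Leaving out 1 library moved it between 0.06 and 0.27, with the lowest value without mutant replicate 2 and 0.12 without wild-type replicate 1.

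FEZF2, the selector gene of subcerebral projection neurons in mice, was 88.9 and 89.3 CPM in mutant replicates 1 and 2, against 76.9 and 89.1 CPM in wild-type replicates 1 and 2. Wild-type replicate 2 fell between the mutant libraries, and wild-type replicate 1 alone was low. FEZF2 had a log2 fold change of 0.10 (SE 0.13, 95% interval -0.15 to 0.36; adjusted p = 0.795), which shrank to 0.0011 without wild-type replicate 1.

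BCL11B, which acts downstream of FEZF2 in subcerebral neurons and is also made by striatal projection neurons, was 59.9 and 72.3 CPM in mutant replicates 1 and 2, against 68.5 and 66.4 CPM in wild-type replicates 1 and 2. The wild-type libraries lay between the mutant ones. BCL11B had a log2 fold change of -0.03 (SE 0.13, 95% interval -0.30 to 0.24; adjusted p = 0.965), and it took either sign when 1 library was left out (-0.17 without mutant replicate 2, 0.10 without mutant replicate 1 and -0.0071 without wild-type replicate 1). Striatal markers summed to 667 and 796 CPM in mutant replicates 1 and 2 and to 743 and 697 CPM in wild-type replicates 1 and 2, so the library with the least BCL11B also had the lowest striatal sum. Of 16 striatal markers, 0 rose and 0 fell by edgeR (3 higher and 2 lower at an unadjusted p under 0.05). Their part in the BCL11B values was not tested.

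No upper-layer factor passed. CUX2, a homeobox factor of upper-layer neurons, was 170 and 178 CPM in mutant replicates 1 and 2, against 185 and 186 CPM in wild-type replicates 1 and 2. Both mutant libraries were lower, by a small margin. Its log2 fold change was -0.09 (95% interval -0.32 to 0.14, SE 0.11; adjusted p = 0.804), and it stayed between -0.12 and -0.06 with any 1 library left out (-0.10 without wild-type replicate 1).

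CUX1, its paralog, was 179 and 181 CPM in mutant replicates 1 and 2, against 196 and 165 CPM in wild-type replicates 1 and 2. The mutant libraries lay between the wild-type ones. CUX1 had a log2 fold change of -0.0032 (SE 0.12, 95% interval -0.24 to 0.24; adjusted p = 0.996), and its sign changed under RLE and upper quartile scaling, by DESeq2 and limma-voom, and with the replicate number as a block; without wild-type replicate 1 it was 0.12. The CUX1 locus also encodes CASP, a Golgi protein that shares its first exons, and a count per gene does not separate them.

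RORB, a nuclear receptor that specifies neurons of the granular layer and is also made in sensory thalamus in mice, was 160 and 177 CPM in mutant replicates 1 and 2, against 169 and 172 CPM in wild-type replicates 1 and 2. The wild-type libraries again lay between the mutant ones. For RORB the log2 fold change was -0.02 (SE 0.12, 95% interval -0.25 to 0.22; adjusted p = 0.979). Leaving out wild-type replicate 1 gave RORB a log2 fold change of -0.03. The part of thalamic RNA in the RORB values was not tested.

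For CUX1, CUX2 and RORB the 95% intervals of the fold change ran from 0.845 to 1.18, from 0.798 to 1.10 and from 0.839 to 1.16. For BCL11B and FEZF2 they ran from 0.813 to 1.18 and from 0.900 to 1.28. A p above the threshold does not show equal levels, and these intervals give the changes that the libraries leave room for.

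**Figure D2:**
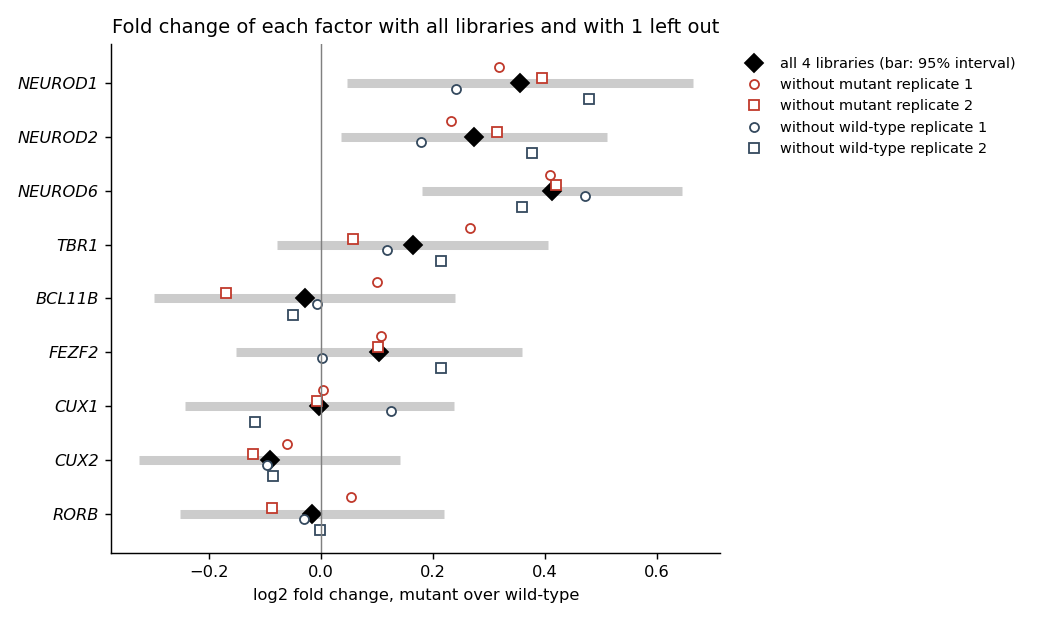
Log2 fold change of each factor, mutant over wild-type, with all 4 libraries (diamonds, grey bars for 95% intervals) and with 1 library left out (open symbols). In each fit drawn the NEUROD, TBR1 and FEZF2 values stay above 0 and the CUX2 value stays below 0. NEUROD6 lies between 0.36 and 0.47, while BCL11B, CUX1 and RORB take either sign.

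The factors were also summed by group within each library. These sums are not scaled by transcript length, so they compare libraries and not genes. The 3 NEUROD factors summed to 541 and 526 CPM in mutant replicates 1 and 2, against 412 and 426 CPM in wild-type replicates 1 and 2, and the groups did not overlap. The upper-layer factors summed to 509.97 and 536 CPM in mutant replicates 1 and 2, against 550.0 and 524 CPM in wild-type replicates 1 and 2, and the groups overlapped. The deep-layer factors summed to 302 and 339 CPM in the mutant libraries, against 288 and 308 CPM in the wild-type libraries, and overlapped as well.

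Ratios within a library do not depend on how libraries are scaled. The NEUROD sum was 1.06 and 0.980 times the upper-layer sum in mutant replicates 1 and 2, against 0.749 and 0.814 times in wild-type replicates 1 and 2. Relative to the deep-layer sum it was 1.79 and 1.55 times in the mutant libraries, against 1.43 and 1.38 times in the wild-type libraries. Both ratios separated the groups, but they reuse the NEUROD values given above and are not separate evidence. The deep-layer sum was 0.592 and 0.632 times the upper-layer sum in the mutant libraries, against 0.524 and 0.588 times in the wild-type libraries. Mutant replicate 1 was there only just above wild-type replicate 2, and without RORB the groups overlapped (0.863 and 0.943 in the mutant, 0.756 and 0.875 in the wild type). With the mean of log2 CPM in place of the sum they overlapped too (0.550 and 0.585 in the mutant, 0.497 and 0.554 in the wild type). An exact permutation test of 2 against 2 libraries cannot give a two-sided p below 0.333, so these ratios are descriptions.

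The NEUROD sum was also higher per unit of pan-neuronal marker RNA, at 0.0534 and 0.0521 times the summed pan-neuronal CPM in mutant replicates 1 and 2, against 0.0410 and 0.0453 times in wild-type replicates 1 and 2. When libraries were scaled by those neuronal markers, NEUROD6 did not pass (log2 fold change 0.36, adjusted p = 0.132). Of 13 pan-neuronal markers tested, 1 rose and 2 fell (4 higher and 2 lower at an unadjusted p under 0.05 by edgeR), with a median of -0.05. Their sum was nonetheless higher in the mutant libraries, at 10130 and 10092 CPM, against 10052 and 9416 CPM in wild-type replicates 1 and 2. STMN2 made the largest part of that sum, at 3059 and 2902 CPM in the mutant libraries, against 2560 and 2232 CPM in the wild-type libraries. Of the 13, 6 had a positive and 7 a negative log2 fold change, so the higher sum does not stand for the list as a whole.

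**Figure D3:**
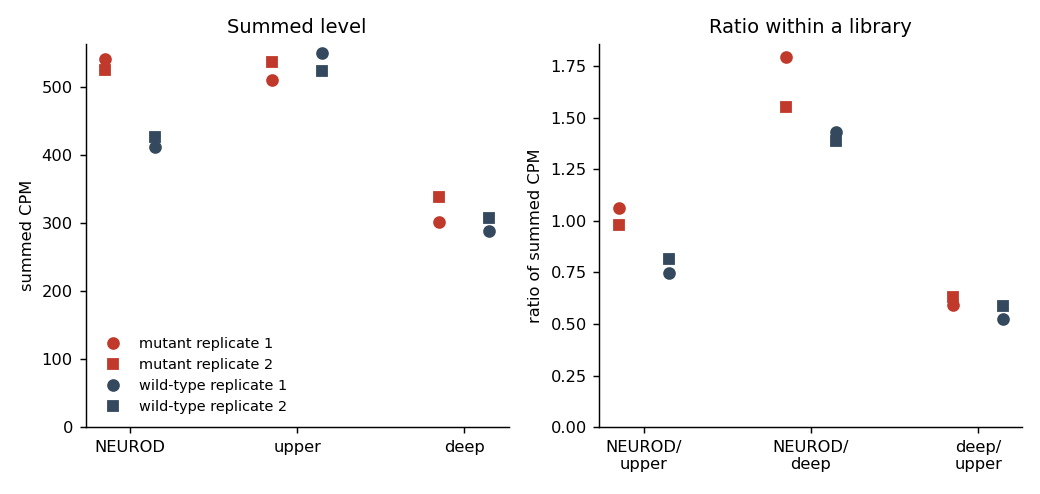
Summed CPM of the NEUROD, upper-layer and deep-layer factors in each library (left) and ratios of those sums within a library (right), mutant in red and wild-type in dark blue, circles for replicate 1 and squares for replicate 2. The NEUROD sums, at 541 and 526 CPM in the mutant against 412 and 426 CPM in the wild type, separate, while the upper-layer and deep-layer sums overlap.

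Other factors of projection neurons showed few calls. Among 11 further bHLH factors and their partners, 1 rose and 0 fell (2 higher and 0 lower at an unadjusted p under 0.05, median 0.08). The 1 that rose was BHLHE22, a bHLH repressor of postmitotic projection neurons that helps set cortical area identity in mice. BHLHE22 was 190 and 183 CPM in mutant replicates 1 and 2, against 114 and 142 CPM in wild-type replicates 1 and 2. The change was 0.54 on the log2 scale (SE 0.12, adjusted p = 0.0104). It passed in 2 of the 4 fits with 1 library left out, and lost its call when wild-type replicate 1 (log2 fold change 0.39, adjusted p = 0.240) or mutant replicate 1 (0.51, adjusted p = 0.0741) was left out. ID2, an inhibitor that sequesters the E-protein partners of bHLH factors, was at 0.37 and did not pass (adjusted p = 0.0868).

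Among 11 tested factors of the upper-layer and callosal list, 0 rose and 0 fell by edgeR (2 higher and 1 lower at an unadjusted p under 0.05, median 0.15), and DESeq2 called 1. POU3F1, a POU-domain factor, was at 0.40 (adjusted p = 0.174).

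Among 13 further deep-layer factors, 0 rose and 0 fell by edgeR or DESeq2 (1 higher and 1 lower at an unadjusted p under 0.05, median 0.10). SOX11, which acts with SOX4 in young neurons, was at 0.41 (SE 0.12, adjusted p = 0.0607). It passed without wild-type replicate 1 (0.55, adjusted p = 0.0366), with the replicate number as a block (0.42, adjusted p = 0.0450) and without a low-count filter (0.41, adjusted p = 0.0304), and was 0.28 without wild-type replicate 2 (adjusted p = 0.451). ZNF521 was at -0.61 (adjusted p = 0.204), and had 151 and 192 counts in the mutant libraries, against 330 and 176 in wild-type replicates 1 and 2. Its log2 fold change was -0.15 without wild-type replicate 1 (adjusted p = 0.903) and passed at -0.95 without wild-type replicate 2 (adjusted p = 0.00123).

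Of 11 tested dorsal telencephalic and progenitor factors, 0 rose and 0 fell by edgeR or DESeq2 (4 higher and 0 lower at an unadjusted p under 0.05, median 0.17). LHX2, a selector of cortical fate, was at 0.30 (adjusted p = 0.217), and EMX1, a homeobox factor of the cortical lineage, was at 0.34 (adjusted p = 0.292). EOMES, which marks intermediate progenitors, was 0.916 and 1.19 CPM in the mutant libraries and 1.06 and 0.814 CPM in the wild-type libraries. NEUROG1 was at 0 in all 4 libraries.

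The 23 layer effector genes, used as layer markers and including adhesion molecules, receptors and calcium-binding proteins, had a negative median. Of these, 1 rose and 1 fell, and 18 had a negative log2 fold change (median -0.19). MDGA1, a surface protein of upper-layer neurons that restrains synapse formation, was 73.5 and 93.6 CPM in mutant replicates 1 and 2, against 50.8 and 53.0 CPM in wild-type replicates 1 and 2 (log2 fold change 0.69, SE 0.14, adjusted p = 0.00259). It passed in each fit with 1 library left out except that without mutant replicate 2 (0.50, adjusted p = 0.110). CRYM, a thyroid-hormone-binding protein of corticofugal neurons, was 70.9 and 67.3 CPM in the mutant libraries, against 90.1 and 113 CPM in the wild-type libraries (-0.55, SE 0.13, adjusted p = 0.0150). CRYM passed without wild-type replicate 1 (adjusted p = 0.00133) and in no other of those fits.

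**Figure D4:**
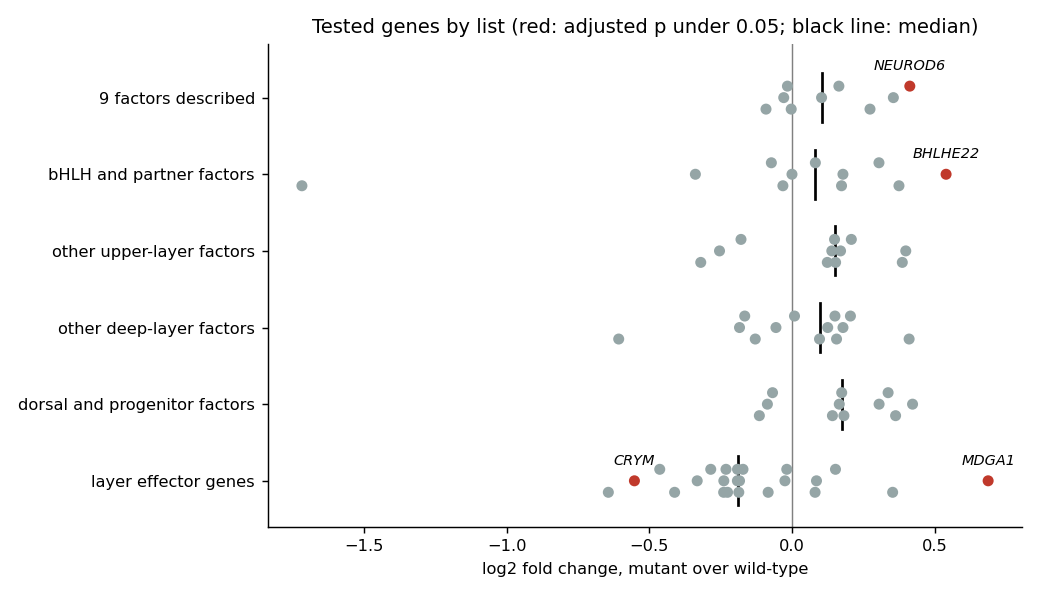
Log2 fold change, mutant over wild-type, of each tested gene in the 9 factors and in 5 lists of related genes; red points passed an adjusted p of 0.05 and are named, and black lines are medians. The 4 factor lists have medians from 0.08 to 0.17, the layer effector genes a median of -0.19, and 4 genes passed, NEUROD6, BHLHE22, MDGA1 and CRYM.

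Excitatory neuron markers as a whole did not move one way. Of 15, 2 rose (BHLHE22 and NEUROD6), 1 fell and 12 did not pass by edgeR, with a median of 0.04. At an unadjusted p under 0.05, 5 were higher and 2 lower, and DESeq2 called 3 higher and 1 lower. This list includes NEUROD2, NEUROD6 and TBR1 of the factors described here, and BHLHE22 of the bHLH list. Both rises by edgeR therefore repeat values given above. The 1 that fell was NPTX1, a secreted pentraxin of excitatory synapses that neuronal activity regulates, at 90.2 and 109 CPM in mutant replicates 1 and 2, against 126 and 168 CPM in wild-type replicates 1 and 2 (-0.56, SE 0.14, adjusted p = 0.0243). With 1 library left out, NPTX1 passed without wild-type replicate 1 (-0.75, adjusted p = 2.52e-04) and in no other fit, being -0.34 without wild-type replicate 2 (adjusted p = 0.318). SLC17A7, the vesicular glutamate transporter of cortical neurons, was at 0.04 (adjusted p = 0.930).

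Markers of other cells moved beside these values. All 12 oligodendrocyte markers fell (median -1.39), 2 of 11 astrocyte and 3 of 11 microglial markers fell, and 0 in these lists rose by edgeR (0 higher at an unadjusted p under 0.05). At an unadjusted p under 0.05, 6 astrocyte and 6 microglial markers were lower. The astrocyte median was -0.39, with 11 negative log2 fold changes, and the microglial median was -0.60, with 9 negative and 2 positive. Oligodendrocyte markers summed to 1414 and 1363 CPM in the mutant libraries, against 3703 and 3618 CPM in the wild-type libraries, and astrocyte markers to 3922 and 4221 CPM in the mutant libraries, against 5455 and 5274 CPM in the wild-type libraries. Of 19 interneuron and ventral telencephalon markers 0 rose and 2 fell (median -0.12), with 1 higher at an unadjusted p under 0.05. Of 10 vascular markers 0 passed by edgeR (0 higher and 2 lower at an unadjusted p under 0.05), and of 10 choroid plexus and meningeal markers 0 passed (1 higher and 2 lower). Among 17 cerebellar and hindbrain markers, 4 were at 0 in every library, and of 7 tested 1 fell and 0 rose. These summed to 45.7 and 45.2 CPM in mutant replicates 1 and 2, against 116 and 55.9 CPM in wild-type replicates 1 and 2, and ZIC1 among them had 140 and 108 counts in the mutant libraries, against 563 and 173 in the wild-type libraries. The part of these shifts in the NEUROD values was not tested.

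The genes whose pattern over the 4 libraries lay nearest to that of NEUROD6 were PABPC1, a poly(A)-binding translation factor, TCEANC and SPINT1, at root mean square distances of 0.011, 0.021 and 0.022 on the centred log2 CPM scale. PABPC1 was 443 and 449 CPM in mutant replicates 1 and 2, against 346 and 321 CPM in wild-type replicates 1 and 2. With 4 libraries many genes share such a pattern: 482 of 13652 genes compared lay within 0.1 of NEUROD6.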

How the data were processed

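The authors deposited whole-number counts per gene for 4 libraries, with no normalization. Per the labels' protocols, TRIzol RNA was DNase-treated, poly(A)-selected and made into directional libraries. Trimmomatic 0.38 and STAR 2.7.10a were used, per the submitters' processing notes; how reads were counted, on which build and annotation and with which strand setting, is not stated there. Columns were matched to libraries by the names in the labels.

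Genes passing filterByExpr (minimum count 10) were scaled by TMM and tested with edgeR 4.0.16 in R 4.3.3 (quasi-likelihood, robust = TRUE), with Benjamini-Hochberg adjustment over 16956 genes; 2 residual degrees of freedom were moderated by a median of 31.6 prior ones. An SE is the log2 fold change over the square root of F. Every adjusted p without another tool's name is from this test. Replicates differed beyond counting noise (chi-square per degree of freedom 6.90 in mutant, 7.28 in wild-type libraries).

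The members and lists were chosen with earlier results of these data known. From each related list up to 4 genes past the threshold were named, or the 2 with the smallest p. A gene that this rule takes is not reported here by name. EOMES, NEUROG1, SLC17A7, ZIC1, STMN2, SPOCK1, PROX1 and the thalamic genes were named after their values were seen. Alternatives were RLE and upper quartile scaling, DESeq2 1.42.0 on all rows, limma-voom (limma 3.58.1), robust = FALSE, other filters, a replicate block and each library left out on the same genes. A fit without 1 library has 1 library in a group, so its calls depend on the missing replicate as well as on the size of a change. Scaling by pan-neuronal markers was added after seeing the data. Of the ratios, only that of deep-layer to upper-layer factors was planned.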

Additional observations from a re-analysis of the deposited data

How the results depend on the processing

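The count of factors called was 1, and it was 0 by limma-voom, under scaling by pan-neuronal markers and in each fit without 1 library (0 to 0). No factor other than NEUROD6 passed under any alternative run. The median log2 fold change of the factors, 0.10, ranged from 0.057 to 0.21 with 1 library left out. The deep-to-upper difference in log2 ratio, 0.14, ranged from 0.06 to 0.22. CUX1 changed sign under RLE scaling (0.000228), upper quartile scaling (0.0017), DESeq2 (0.000181), limma-voom (0.0015) and the replicate block (0.0019), all within a few thousandths of 0, and ranged from -0.12 to 0.12 without 1 library. BCL11B ranged from -0.17 to 0.10 and RORB from -0.088 to 0.054. The cause was not tested. Over all genes, 378 were called (29.6% of them higher), 244 by DESeq2, 633 without a low-count filter, and 163 to 562 without 1 library, lowest without mutant replicate 1 and next 220 without mutant replicate 2. Scaling by pan-neuronal markers called 433 genes, 16.6% of them higher. Replicate numbers are shared by the groups. Deviations from the group mean had a correlation of -0.02 between same-numbered libraries and 0.02 between crossed numbers, over 10938 genes. With 2 libraries per group these values mirror each other, and whether same-numbered libraries share a batch was not tested. With the replicate block 493 genes were called, NEUROD6 among them (0.41, adjusted p = 0.0389). Each factor had at least 344 counts in every library.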
